A study of Mus musculus with 95 samples.

Results

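The major histocompatibility complex (MHC) class I genes H2-K1, H2-D1, H2-Q4, H2-T23 and H2-M3, the class I light chain gene B2m and the class I transactivator Nlrc5 were followed in the kidneys of lupus-prone SNF1 mice. Of these 7 genes, 6 have at least 1 probe set that the array annotation assigns to that gene alone, and they stand among 17097 genes measured in this way. B2m has none and is described apart from the counts. SNF1 mice come from crossing the SWR and NZB strains, and only females were used. Pristane, a hydrocarbon oil, was injected once into the peritoneum before signs of spontaneous disease, and controls of the same age were left untreated. Whole kidney RNA of 95 mice was hybridised to 1 Affymetrix HT MG-430 PM array each. The untreated mice numbered 7 at week 0 and 10 at week 2, followed by 9 at week 4, then 10 each at weeks 8 and 12, and finally 5 at week 14. The pristane-SNF1 mice numbered 9 at week 2 and 10 at week 4, followed by 8 each at weeks 8 and 12, and finally 9 at week 14. All mice share the autoimmune F1 background, and no non-autoimmune strain was compared. The methods describe more than 1 longitudinal experiment, and the labels do not say which mouse belongs to which.

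Class I molecules are made of a polymorphic heavy chain and beta-2 microglobulin, and they display peptides from inside the cell to CD8 T cells. Peptides are cut by the proteasome, carried into the endoplasmic reticulum by the TAP transporter and fitted to the heavy chain by a loading complex. Most nucleated cells carry class I, kidney cells included, and interferons raise its level. Nlrc5 is itself induced by interferon and drives class I genes from a promoter module of X and Y boxes, which the RFX and NF-Y factors bind.

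H2-K1 and H2-D1 encode classical heavy chains, which present peptides to most CD8 T cells. H2-Q4 lies in the Qa region, H2-T23 encodes Qa-1, a ligand of NKG2A on natural killer cells, and H2-M3 encodes a heavy chain that presents N-formylated peptides. All 5 lie on mouse chromosome 17 (GRCm38.p6), from H2-K1 at 33996012-34000619 over H2-D1 at 35263094-35267497, H2-Q4 at 35379617-35384674 and H2-T23 at 36029977-36032701 to H2-M3 at 37270234-37274485. B2m lies on chromosome 2 at 122147687-122153082 and Nlrc5 on chromosome 8 at 94434335-94527272. The 6 genes are read by 14 probe sets, of which 4 belong to H2-K1, 5 to H2-D1, 2 to H2-T23 and 1 each to H2-Q4, H2-M3 and Nlrc5. Of the 14, 8 carry the suffix x, which marks probes that may bind RNA of related genes, and these are sets of H2-K1 and H2-D1. SWR mice carry the q and NZB mice the d haplotype of the MHC, and both differ in sequence from the reference haplotype b, so that a level can also depend on how well an allele binds. A further 5 sets, assigned to H2-K1, H2-D1 and another locus together, were left out. Each gene was represented by its brightest set over all arrays. The study's supplement names the H2-Q4 set after other genes of the Qa region, so its level may include their RNA. It also gives further names to the representative set of H2-T23 and to 1 other set each of H2-K1 and H2-D1.

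The promoters of the class I genes are shown because class I promoters are known for the boxes through which Nlrc5 and interferon act, and 6 of the 7 genes have an entry in the RefSeq promoter table (GRCm38.p6). The windows hold the 250 bases before the transcript start that the table uses, and they are H2-K1 at chr17:34000348-34000597 on the minus strand, H2-Q4 at chr17:35379367-35379616, H2-M3 at chr17:37269984-37270233, H2-T23 at chr17:36032702-36032951 on the minus strand and B2m at chr2:122147437-122147686. For H2-K1 the table gives 2 windows, of which the first was used; its transcript start, 34000347, lies 272 bases inside the locus given above, so that this window falls within the annotated gene, while the other starts coincide with the end of their locus. Capitals mark matches, on either strand, to the X2-box core TGACG, the Y-box core CCAAT, a kB-like motif GGGNNTTCC and an interferon-response-like motif in the spacings GAAANNGAA and GAANNGAAA, the last searched after the windows had been read.
H2-K1: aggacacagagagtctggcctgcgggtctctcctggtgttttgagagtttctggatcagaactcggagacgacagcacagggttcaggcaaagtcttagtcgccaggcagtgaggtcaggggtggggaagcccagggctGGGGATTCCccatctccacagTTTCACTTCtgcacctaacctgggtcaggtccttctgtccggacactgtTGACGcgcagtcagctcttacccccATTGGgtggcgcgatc
H2-Q4: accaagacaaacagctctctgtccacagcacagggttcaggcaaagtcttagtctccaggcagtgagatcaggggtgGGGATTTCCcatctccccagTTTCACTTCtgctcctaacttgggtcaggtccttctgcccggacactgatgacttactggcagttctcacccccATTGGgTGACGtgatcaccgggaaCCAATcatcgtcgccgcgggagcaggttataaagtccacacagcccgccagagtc
H2-M3: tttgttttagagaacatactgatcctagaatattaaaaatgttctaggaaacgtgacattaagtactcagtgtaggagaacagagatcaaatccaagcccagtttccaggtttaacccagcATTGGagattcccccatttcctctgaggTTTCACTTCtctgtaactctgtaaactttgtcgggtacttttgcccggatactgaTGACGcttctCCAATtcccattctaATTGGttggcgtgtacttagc
H2-T23: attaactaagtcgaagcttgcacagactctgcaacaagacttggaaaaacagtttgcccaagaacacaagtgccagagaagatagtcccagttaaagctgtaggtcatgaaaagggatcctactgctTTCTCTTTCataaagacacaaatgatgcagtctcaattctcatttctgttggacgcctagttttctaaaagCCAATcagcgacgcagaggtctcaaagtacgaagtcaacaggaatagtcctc
B2m: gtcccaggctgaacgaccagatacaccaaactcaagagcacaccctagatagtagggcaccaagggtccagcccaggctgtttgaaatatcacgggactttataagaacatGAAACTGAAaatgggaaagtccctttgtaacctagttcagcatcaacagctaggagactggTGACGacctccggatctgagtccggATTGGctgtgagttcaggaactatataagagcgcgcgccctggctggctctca

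The Y-box core was found in 6 of 6 promoters, against 34.5% of 27025 mouse promoters of this length, and the X2-box core in 5 of 6, all but H2-T23, against 17.9%. Both cores together were present in 5 of 6 promoters and in 6.39% of all. The kB-like motif was present in 3 of 6 (H2-K1, H2-D1 and H2-Q4) against 4.88%. The spacing GAANNGAAA was present in 4 of 6 (H2-K1, H2-D1, H2-Q4 and H2-M3) against 6.34%, and GAAANNGAA in the other 2, H2-T23 and B2m, against 7.16%. In H2-K1 the kB-like, interferon-response-like, X2 and Y matches began 111, 90, 41 and 16 bases before that transcript start, and in H2-D1 the same order began at 171, 150, 101 and 76 bases. These promoters are alike, with 87.4% of 190 aligned bases equal, which is why H2-D1 is not printed. These 4 kinds of match occurred together in H2-K1, H2-D1 and H2-Q4, and in 10 promoters in all. The order differed in H2-Q4, where the kB-like and interferon-response-like matches began at 173 and 153 bases. There the X2 match began at 73 bases, between Y matches at 79 and 55, and not ahead of both. No match overlapped another. Such matches are descriptions of the letters, of the reference strain only.

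Over the 11 groups each of the 6 genes had its highest mean in pristane-SNF1 kidneys at week 14. The log2 level of H2-K1 was 9.22 ± 0.30 (SD, n = 7) in untreated mice at week 0. In pristane-SNF1 mice its mean went from 9.86 ± 0.14 (SD, n = 9) at week 2 over 10.01 ± 0.23 (SD, n = 10) at week 4, 10.14 ± 0.28 (SD, n = 8) at week 8 and 10.59 ± 0.40 (SD, n = 8) at week 12 to 11.52 ± 0.56 (SD, n = 9) at week 14. In untreated mice the means of H2-K1 stayed between 9.22 and 9.89. The drop from the first to the second group in this order, pristane week 14 to pristane week 12, was 0.93 and exceeded the larger SD of both, as did the next drop, 0.45. All later neighbours in the order of H2-K1 lay within their SD of each other. For Nlrc5 only the first drop, 1.20, exceeded the larger SD, since pristane mice at week 12 (8.59 ± 0.61, n = 8) and week 8 (8.00 ± 0.33, n = 8) lay closer. H2-Q4 ran from 5.43 ± 0.38 (SD, n = 7) in untreated mice at week 0 to 8.56 ± 0.60 (SD, n = 9) in pristane mice at week 14, and H2-D1 from 10.16 ± 0.22 to 11.96 ± 0.45. For H2-M3 the lowest mean was that of untreated mice at week 2, 5.89 ± 0.10 (SD, n = 10), next to 5.91 ± 0.12 (SD, n = 7) at week 0, and the highest was 7.79 ± 0.65 (SD, n = 9). In H2-D1, H2-Q4 and H2-M3, as in H2-K1, pristane week 12 came next and pristane week 8 after it, each drop to the following group being larger than the SD down to week 8. B2m, in its brighter set, read 13.72, 13.51 and 13.17 at pristane weeks 14, 12 and 8 and 12.56 in untreated mice at week 0. Its sets are named only by a supplementary list that may have been chosen by change at week 14. Its order is therefore not counted with that of the 6 genes. H2-T23 was the exception in order: its pristane means at weeks 2, 4, 8 and 12 lay between 8.26 and 8.40 with no difference beyond their spread, and only week 14, at 8.92 ± 0.37 (SD, n = 9), stood above them.

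**Figure D1:**
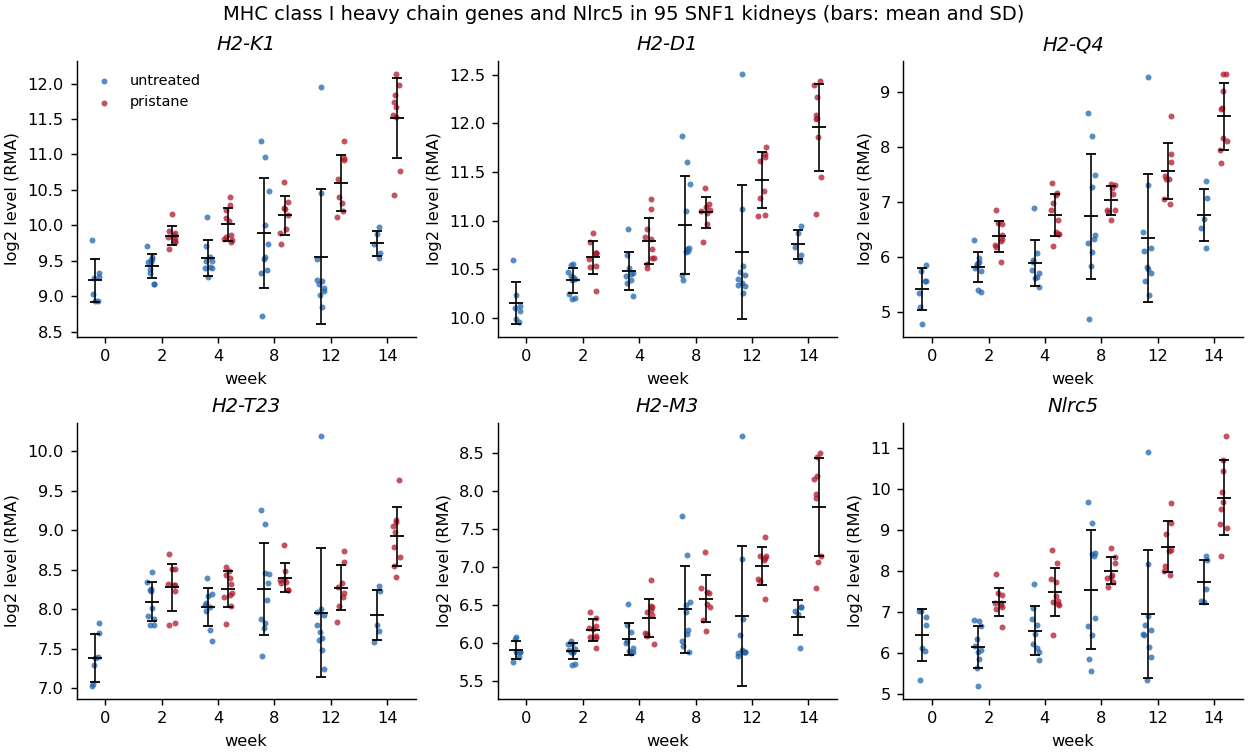
Log2 RMA level of each gene (y axis) by week (x axis) for untreated (blue) and pristane-SNF1 (red) mice; each point is 1 mouse, bars give mean and SD. The 9 pristane mice of week 14 lie above the 5 untreated ones in every panel, and 1 untreated mouse of week 12 lies far above its group.

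At week 14 all 6 genes rose in pristane-SNF1 kidneys against untreated controls (limma, Benjamini-Hochberg adjusted over 45037 probe sets, called at an adjusted p under 0.05), where 6.97% of the 17097 genes were called higher. In bulk RNA, more cells of a type and more RNA per cell cannot be told apart. The median log2 difference of the 6 genes was 1.61, against 0.00 over all genes. In all 6 the 9 pristane mice lay above all 5 untreated mice, a separation that 3.2% of genes showed.

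The classical genes rose 3.41-fold (H2-K1) and 2.30-fold (H2-D1). H2-K1 read 9.87, 9.97, 9.73, 9.62 and 9.54 in the 5 untreated mice, and from 10.43 over a median of 11.67 to 12.14 in pristane-SNF1 mice, a log2 difference of 1.77 ± 0.26 (SE, limma adjusted p = 0.00536). H2-D1 read 10.87, 10.95, 10.73, 10.65 and 10.59 in untreated mice, and from 11.07 over 12.05 to 12.43 after pristane, a difference of 1.20 ± 0.20 (SE, limma adjusted p = 0.00929). The lowest pristane value of both genes came from mouse 2, which still lay above the highest control.

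Among the other heavy chains, H2-Q4 rose 3.45-fold, H2-M3 2.73-fold and H2-T23 1.99-fold. H2-Q4 read 6.70, 7.40, 6.54, 7.08 and 6.18 in untreated mice and 7.72 to 9.34 after pristane, with a median of 8.70 and a log2 difference of 1.79 ± 0.31 (SE, limma adjusted p = 0.00955). H2-M3 read 6.38, 6.48, 6.43, 6.48 and 5.94 in untreated mice and 6.73 to 8.50 after pristane, with a median of 7.97 and a difference of 1.45 ± 0.30 (SE, limma adjusted p = 0.0179). H2-T23 read 7.80, 8.29, 7.59, 8.24 and 7.72 in untreated mice and 8.41 to 9.63 after pristane, with a median of 8.98 and a difference of 0.995 ± 0.193 (SE, limma adjusted p = 0.0141). The separation was narrowest in H2-T23 among these, with 0.114 between the highest control and the lowest pristane mouse, mouse 7.

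Nlrc5 rose 4.14-fold and had both the largest difference and the largest spread of the 6. It read 7.25, 8.36, 7.27, 8.26 and 7.55 in untreated mice and from 8.37 over a median of 9.69 to 11.30 in pristane-SNF1 mice. The log2 difference was 2.05 ± 0.44 (SE, limma adjusted p = 0.0209), and its 95% interval ran from 1.10 to 3.01. Untreated mouse 2 and pristane mouse 2 were only 0.005 apart. With 1 mouse left out, the adjusted p of Nlrc5 reached 0.0638 without untreated mouse 3, and passed 0.05 also without untreated mouse 1 or 5, while H2-M3 reached 0.0505 without untreated mouse 3 or 5. With the mean level of adrenal genes as a covariate, a fit added after the data had been seen, Nlrc5 stood at 1.74 (limma adjusted p = 0.0537) and the other 5 genes were called.

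B2m, the shared light chain, is covered by 2 probe sets that only a probe list in the study's supplement names, and since the part of that list shown here may have been chosen by change at week 14, no p is given for comparisons with that week. In the brighter set B2m read 12.95 to 13.26 in the untreated and 13.32 to 13.87 in the pristane mice of week 14, and in the other set 11.95 to 12.30 and 12.44 to 13.26. The log2 differences were 0.62 and 0.92, and the same choice of sets may favour them and the distance between these ranges. At week 2 the dimmer B2m set was 0.26 ± 0.03 (SE) higher in pristane-SNF1 mice (limma adjusted p = 4.49e-05). In it 9 of 9 lay above all controls, a separation that 0.263% of the 17097 genes showed. The brighter set was 0.14 ± 0.05 (SE) higher and did not pass (limma adjusted p = 0.56).

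Across all 14 probe sets, 11 rose at week 14 and none fell. The 3 others were 1 set each of H2-K1, H2-D1 and H2-T23, at differences of 0.20, 0.07 and 0.07. Of these, the H2-D1 set lay at the lowest value of the data, 2.21, on 83 of 95 arrays and the H2-T23 set had a mean of 2.87. The H2-K1 set had a mean of 5.18. At week 14 its median in untreated mice and its lowest value in pristane mice were both 5.155. The same 5.155 was its highest value in untreated mice of weeks 2 and 4. In the H2-T23 set the median was 2.82 in both groups of week 14. With values repeated in this way, these sets may not be able to show a change. The called sets of H2-D1 ranged up to 1.62, above its representative.

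Already at week 2, H2-K1 and Nlrc5 were higher in pristane-SNF1 kidneys, 2 of 6 genes against 0.404% of all genes called higher. A single fit of all 11 groups called 0 of 6 at this week. H2-K1 ranged from 9.17 over 9.48 to 9.71 in untreated and from 9.66 over 9.83 to 10.16 in pristane mice, a log2 difference of 0.42 ± 0.07 (SE, limma adjusted p = 0.00887), with 8 of 9 pristane mice above all controls. The other H2-K1 sets did not pass, at 0.42 (limma adjusted p = 0.248), 0.41 (limma adjusted p = 0.355) and 0.06 (limma adjusted p = 0.927). Nlrc5 ranged from 5.19 over 6.12 to 6.80 and from 6.63 over 7.21 to 7.92, a difference of 1.10 ± 0.20 (SE, limma adjusted p = 0.0219), again with 8 of 9 above. None of the 6 representative sets separated the groups fully, against 0.263% of genes that did. H2-M3 (0.28, limma adjusted p = 0.0516) and H2-Q4 (0.57, limma adjusted p = 0.0806) missed the threshold, H2-D1 stood at 0.24 and H2-T23 at 0.18, and 5 of 6 had an unadjusted p under 0.05. Other probe sets of H2-D1 moved more than its representative: 2 further sets were 0.50 ± 0.08 (SE) higher each (limma adjusted p = 0.00452 and 0.00929). In the latter, which the study's supplement also names after H2-L and another locus, all 9 pristane mice lay above all controls. Of the leukocyte genes Ptprc, Laptm5 and Cd53, 1 of 3 was called higher at week 2, and their mean level ranged from 5.78 to 6.40 in untreated and from 6.20 to 6.67 in pristane mice. The 7 adrenal genes all had positive differences in this comparison, with 0 called by limma and 6 at an unadjusted p under 0.05. Their mean level ranged from 3.81 to 8.41 in the pristane and from 3.74 to 8.06 in the untreated kidneys, with medians of 7.57 and 3.89. With that level as a covariate, a fit added after the data had been seen, H2-K1 stood at 0.36 (limma adjusted p = 0.262) and Nlrc5 at 0.95 (limma adjusted p = 0.392), and 0 of 6 genes were called.

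At week 4 no gene of the 6 was called by limma, against 0.246% of all genes called higher and 0.0409% without overlap, although all 6 were higher with an unadjusted p under 0.05. The log2 differences were 0.48 ± 0.11 (SE) for H2-K1, 0.30 ± 0.10 for H2-D1, 0.87 ± 0.18 for H2-Q4, 0.23 ± 0.10 for H2-T23, 0.28 ± 0.11 for H2-M3 and 0.95 ± 0.27 for Nlrc5. The leukocyte genes moved with them: 1 of 3 was called higher, all 3 had an unadjusted p under 0.05, and their mean level ranged from 5.93 to 6.57 in untreated and from 6.37 to 7.85 in pristane mice, a part in the class I levels that was not tested. H2-Q4 came nearest to the threshold (limma adjusted p = 0.0801), with 4 of 10 pristane mice above all untreated mice. Without untreated mouse 1, whose H2-Q4 level of 6.89 was the highest of its group, H2-K1 and H2-Q4 were called, and without pristane mouse 1 H2-Q4 alone.

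**Figure D2:**
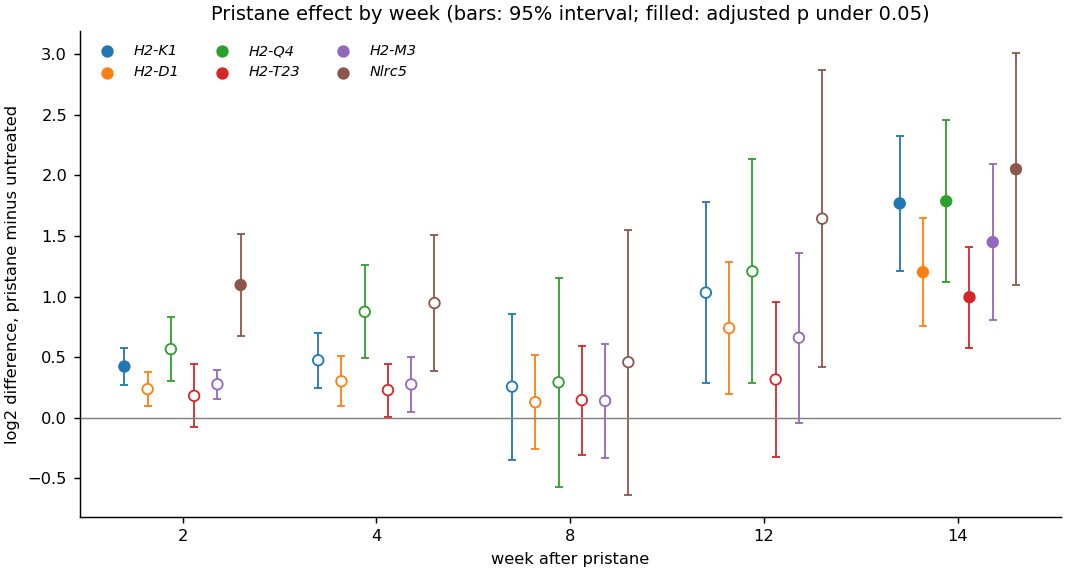
Log2 difference, pristane minus untreated (y axis), for each gene by week (x axis) with its 95% interval; filled points have a limma adjusted p under 0.05. All 6 points are filled at week 14, 2 at week 2 and none between.

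Week 8 was marked by spread among the untreated mice rather than by a difference. No gene of the 6 was called by limma, none had an unadjusted p under 0.05 and none separated the groups, against 0.181% of genes called and 0.105% without overlap. H2-K1 ranged from 8.73 over 9.65 to 11.19 in untreated and from 9.74 over 10.19 to 10.61 in pristane mice, a log2 difference of 0.26 with a 95% interval from -0.34 to 0.86. Nlrc5 ranged from 5.55 over 7.61 to 9.69 and from 7.60 over 7.88 to 8.56, a difference of 0.46 with an interval from -0.63 to 1.55. Untreated mouse 3 lay above all pristane mice in 6 of 6 genes, and untreated mouse 9 did so in all but H2-M3. The SD of the untreated group was between 1.81 (H2-M3) and 4.41 (H2-Q4) times that of the pristane group. The mean level of the leukocyte genes was 8.36 in mouse 3 and 8.13 in mouse 9, where the other untreated mice of week 8 reached at most 7.22.

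At week 12 the outcome changed with 1 untreated mouse and with the model. With all 18 mice 0 of 6 genes were called by limma, against 0.0526% of genes called higher and 0.0351% without overlap, and 4 had an unadjusted p under 0.05. A single fit of all 11 groups, with the same 18 mice, called 4 of 6. The log2 differences ran from 0.32 ± 0.30 (SE) for H2-T23 to 1.64 ± 0.58 (SE) for Nlrc5. Untreated mouse 10 read 11.95 for H2-K1, 12.51 for H2-D1, 9.28 for H2-Q4, 10.20 for H2-T23, 8.73 for H2-M3 and 10.90 for Nlrc5. In each of the 6 genes it lay above all 8 pristane mice of its week, and in H2-D1, H2-T23 and H2-M3 it was the highest of all 95 mice. The next highest untreated mouse of week 12 was mouse 2 in every gene, with 10.45 for H2-K1 and 8.18 for Nlrc5. B2m read 13.97 and 13.48 in mouse 10, the highest values of its 2 sets.

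Without untreated mouse 10, singled out for its own class I levels, all 6 genes were called higher at week 12, where 2.25% of all genes were. H2-K1 then differed by 1.30 ± 0.21 (SE, limma adjusted p = 0.00472), H2-D1 by 0.94 ± 0.13 (SE, limma adjusted p = 0.00155) and H2-Q4 by 1.53 ± 0.26 (SE, limma adjusted p = 0.00741). H2-M3 differed by 0.92, H2-T23 by 0.57 (limma adjusted p = 0.0382) and Nlrc5 by 2.08 ± 0.34 (SE, limma adjusted p = 0.0049), a 4.23-fold difference. The leukocyte genes averaged 9.51 in mouse 10, 7.79 in mouse 2 and 5.92 to 6.65 in the other untreated mice of week 12, and 7.41 to 8.27 in pristane-SNF1 mice; their part in the class I levels was not tested.

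**Figure D3:**
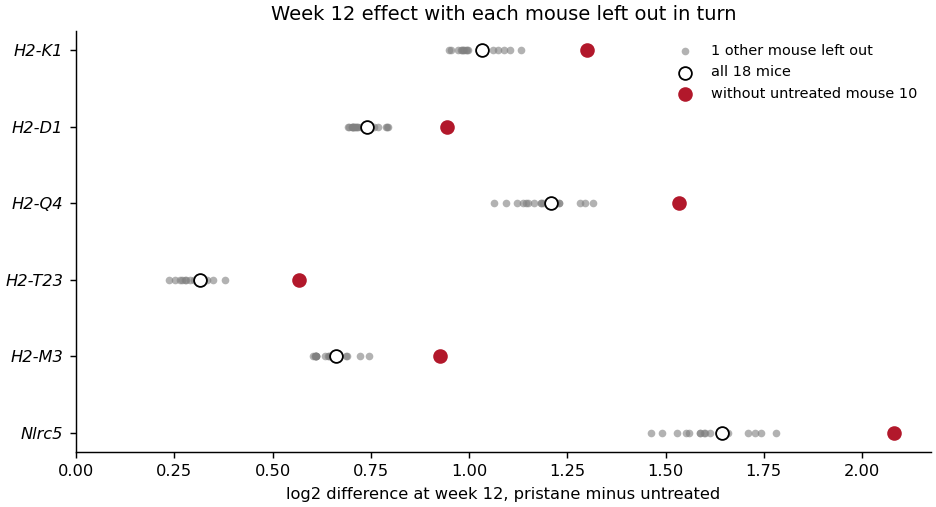
Log2 difference at week 12, pristane minus untreated (x axis), for each gene (y axis): with all 18 mice (open), without untreated mouse 10 (red) and without each other mouse in turn (grey). The red point lies to the right of every other point in each row, from 0.57 for H2-T23 to 2.08 for Nlrc5.

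Within pristane-SNF1 mice, all 6 genes were higher at week 14 than at week 2, a comparison in which 35.1% of all genes were called in either direction. Nlrc5 rose 5.84-fold, H2-Q4 4.53-fold, H2-K1 3.16-fold, H2-M3 3.08-fold and H2-D1 2.53-fold. H2-T23 rose least, 1.57-fold, with 6 of 9 mice above all mice of week 2. In the same comparison 3 of 3 leukocyte genes (median log2 difference 3.17) and 5 of 6 macrophage genes (3.04) were called higher, and 6 of 7 adrenal genes (-3.88) lower. From week 12 to week 14 only H2-T23 was called, by 0.65 ± 0.16 (SE, limma adjusted p = 0.0493), against 2.68% of genes. All 6 were higher with an unadjusted p under 0.05, by 0.54 (H2-D1) to 1.20 (Nlrc5), and the count moved from 0 to 6 with the mouse left out or the setting. Of the leukocyte genes 1 of 3 was called higher from week 12 to week 14, with a median of 1.14. The part of these other genes in the class I changes was not tested.

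Untreated mice also differed between weeks 0 and 14, where age was not separated from other differences between the arrays. The week 0 arrays had a median correlation of 0.984 to 0.991 with all other arrays, and those of untreated week 14 of 0.992 to 0.995. The part of this in the class I levels was not tested. Between week 0 and week 14, H2-Q4 rose by 1.35 ± 0.24 (SE, limma adjusted p = 0.00589), Nlrc5 by 1.30 ± 0.34 (SE, limma adjusted p = 0.0305), H2-D1 by 0.60, H2-K1 by 0.52 and H2-M3 by 0.43, so that 5 of 6 genes were called against 16.1% of all genes. H2-Q4 ranged from 4.79 to 5.86 at week 0 and from 6.18 to 7.40 at week 14. Nlrc5 ranged from 5.34 to 7.02 and from 7.25 to 8.36. Leukocyte genes changed as well, with 2 of 3 called higher (median log2 difference 1.25) and a mean level of 5.92 to 6.56 at week 0 and 6.82 to 7.46 at week 14, as did 3 of 6 macrophage genes (median 0.70); their part was not tested. H2-T23 was 0.55 higher and missed the threshold (limma adjusted p = 0.0652). Of all 14 probe sets 5 were called, 1 of 4 for H2-K1 and 1 of 5 for H2-D1. In 1 other set each, H2-K1, H2-D1 and H2-T23 were lower without passing, at -0.234, -0.214 and -0.169. These are the sets not called for pristane at week 14, whose values often repeat and may not be able to show a change. The call of H2-K1 was lost in 10 of 12 fits with 1 mouse left out, and the count of called genes fell to 2 without untreated mouse 2 or 4 of week 14 and to 3 without mouse 1 or 7 of week 0.

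The effect of pristane was larger at week 14 than at week 2 in 5 of 6 genes by the test of the difference itself, where 16.2% of genes were called. That difference was 1.35 ± 0.23 (SE, limma adjusted p = 0.000536) for H2-K1, 1.22 ± 0.30 for H2-Q4, 1.17 ± 0.26 for H2-M3, 0.97 ± 0.19 for H2-D1 and 0.81 ± 0.22 for H2-T23. For Nlrc5, whose effect was already 1.10 at week 2, it was 0.96 ± 0.44 (SE) and did not pass (limma adjusted p = 0.184). By the same test 3 of 3 leukocyte genes (1.76) and 4 of 6 macrophage genes (2.10) had a larger effect at week 14, while the median of the adrenal genes was -1.99 with 0 of 7 called and 2 at an unadjusted p under 0.05. Between weeks 14 and 12 the effects differed by 0.41 to 0.79 with 0 of 6 genes called by limma, as were 0% of all genes, and no unadjusted p under 0.05. Between weeks 8 and 2 the count was likewise 0 of 6, against 0% of all genes, with no unadjusted p under 0.05.

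Other genes of the class I pathway at week 14 were read from fixed lists. Of 11 measured genes for peptide supply and loading, 7 rose, 0 fell and 4 did not pass. The immunoproteasome subunits Psmb8 and Psmb9 rose by 2.06 ± 0.36 (SE, limma adjusted p = 0.0105) and 1.93 ± 0.34 (SE, limma adjusted p = 0.0103), and the remaining subunit Psmb10 by 1.43. Tap1 and Tap2, the peptide transporter genes, were not measured here. Psmb8 was already higher at week 2, by 0.73 ± 0.11 (SE, limma adjusted p = 0.00207). The median difference of this list at week 14 was 0.86, against 0.00 over all genes.

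Of 12 measured transcription regulators, 5 rose and 1 fell. Irf9, the DNA-binding part of the interferon-stimulated complex ISGF3, rose by 1.89 ± 0.19 (SE, limma adjusted p = 0.0011), its partner Stat2 by 1.37 and Irf1, an activator of class I promoters, by 1.20. Nfyc, a subunit of the Y-box factor NF-Y, fell by 0.37 on the log2 scale. Irf9 was also higher at week 2, by 1.15 ± 0.14 (SE, limma adjusted p = 0.000361), and at week 4, by 1.03 ± 0.17 (SE, limma adjusted p = 0.0195). The median difference of the list at week 14 was 0.12.

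The measured class I and class I-like heavy chains outside the chosen genes were mixed, with 3 of 11 higher, 1 lower and a median of 0.05. H2-Q6, H2-Q7, H2-T22, H2-M2 and Mr1, also listed, were not measured here. H2-T10 rose by 0.96, Hfe, a regulator of iron uptake, by 0.91 and H2-T24 by 0.89, while Azgp1, a lipid-binding class I relative, fell by 1.01. H2-T24 was also higher at week 8, by 0.65 ± 0.10 (SE, limma adjusted p = 0.0201), the only gene of the pathway lists called at that week. Of 7 class II genes, whose products present peptides from outside the cell, 6 rose, among them H2-Ab1 by 2.04, H2-Eb1 by 2.00 and H2-Aa by 1.89. Their transactivator Ciita, a relative of Nlrc5, stood at 0.06 ± 0.05 (SE, limma adjusted p = 0.536).

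Of 9 genes listed as receptors of class I, 4 rose at week 14 and 0 fell. Lilrb4a, an inhibitory receptor of myeloid cells whose binding to class I is not given by these data, rose by 2.59. Pirb, a class I receptor of myeloid and B cells, rose by 1.72. Klrd1, the CD94 partner of NKG2A, rose by 0.67 from near the lowest measurable level. Cd8a, the class I co-receptor of T cells, rose by 0.63.

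**Figure D4:**
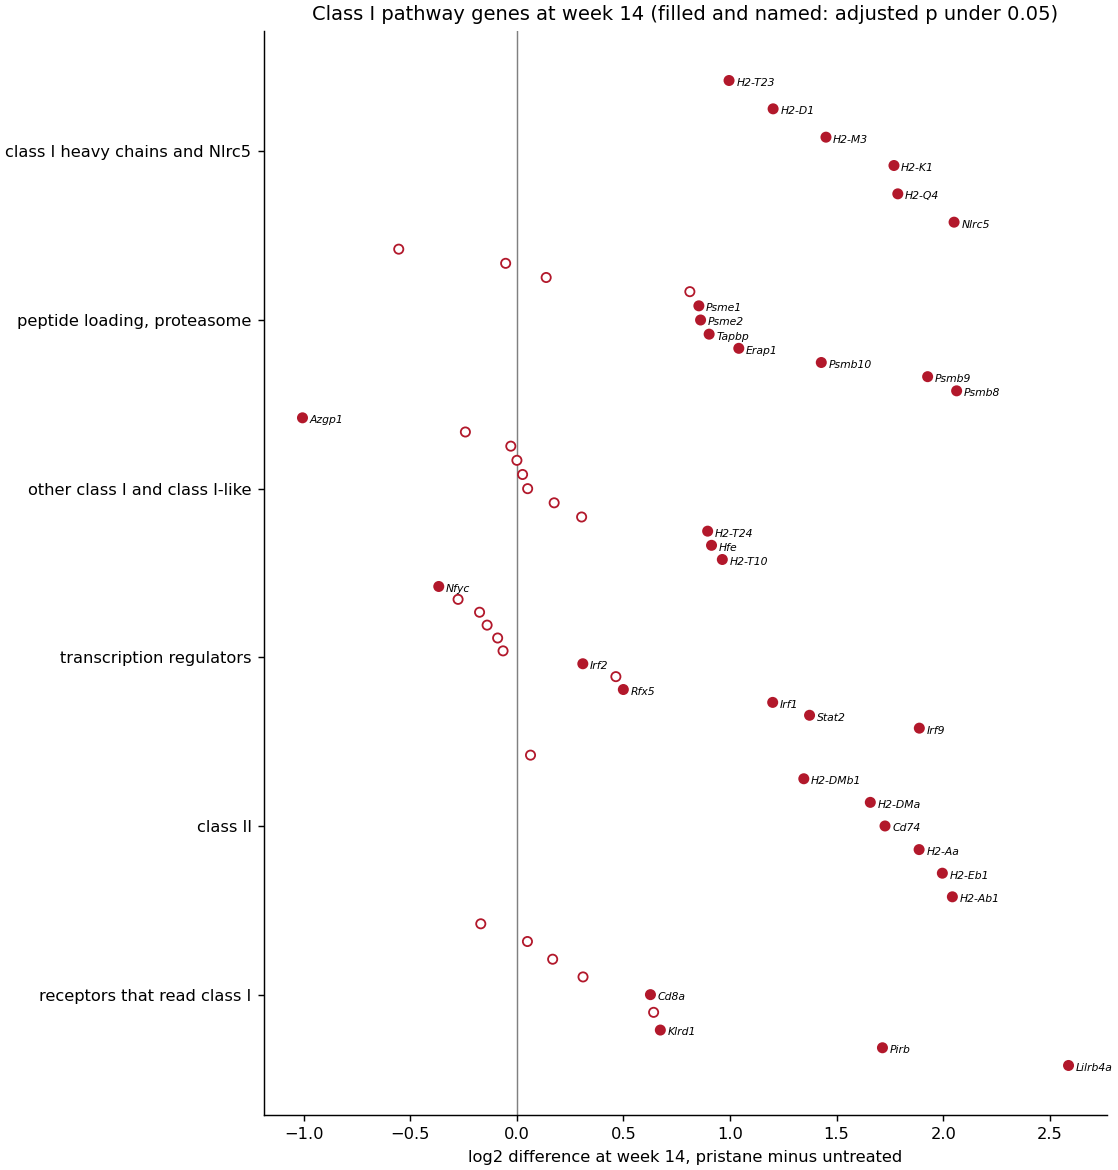
Log2 difference at week 14, pristane minus untreated (x axis), for each measured gene of 6 lists (y axis); filled and named points have a limma adjusted p under 0.05. Filled points to the right of 0 rose: 6 of 6 class I genes, 7 of 11 loading genes, 3 of 11 other heavy chains, 5 of 12 regulators, 6 of 7 class II genes and 4 of 9 receptors.

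Genes of other cells moved with the class I genes. At week 14 all 3 leukocyte genes rose, and their mean level ranged from 6.82 to 7.46 in untreated and from 7.88 to 9.71 in pristane-SNF1 mice. Of the macrophage and monocyte genes 4 of 6 rose (mean level 5.05 to 5.47 against 6.23 to 7.80, with Itgam at the lowest value in all untreated mice), of the T cell genes 2 of 4 (4.34 to 4.73 against 4.98 to 6.72) and of the B and plasma cell genes 2 of 4 (4.47 to 5.37 against 5.29 to 7.79, with Ms4a1 at the lowest value in all untreated mice). Of 4 endothelial genes 0 rose and 1 fell (7.16 to 7.57 against 6.93 to 7.67). The 5 measured kidney genes were present in all groups, with 0 higher and 1 lower at week 14 (9.59 to 9.82 against 8.86 to 9.62). The pristane arrays 3 to 9 of week 14 also had a lower median correlation with all other arrays, 0.969 to 0.977, than arrays 1 and 2, both at 0.991. Mice 1 and 2 lay above every untreated mouse of week 14 in all 6 genes, mouse 2 by only 0.005 in Nlrc5. The part of these cells and of the array correlation in the class I levels was not tested.

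**Figure D5:**
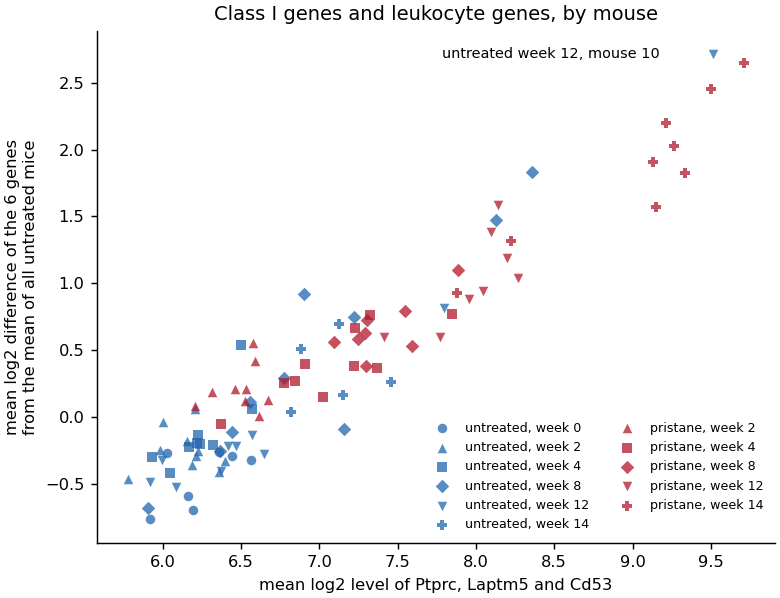
Mean log2 difference of the 6 genes from the mean of all untreated mice (y axis) against the mean log2 level of Ptprc, Laptm5 and Cd53 (x axis); each point is 1 of 95 mice, colour gives treatment and shape the week. Untreated mouse 10 of week 12 lies at 9.51 on the x axis, within the range of the pristane mice of week 14. On the y axis it lies at 2.71, above all of them.

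The 6 genes moved together from mouse to mouse. Over the 95 arrays, which share groups and leukocyte levels, the 15 pairs had Pearson's r between 0.76 and 0.96 (median 0.91). For deviations from the group means the range was 0.74 to 0.93 (median 0.82). Among all 17097 genes, those most like H2-K1 were H2-D1 (r = 0.957), the interferon-inducible GTPase Irgm1 (0.953) and the macrophage gene Mpeg1 (0.946), although H2-K1 and H2-D1 may share probe binding. H2-D1 was most like the class II genes Cd74 (0.968) and H2-Eb1 (0.959), followed by H2-K1. H2-Q4 was nearest to the interferon-inducible GTPases Ifi47 (0.948) and Tgtp1 (0.946) and to H2-K1 (0.945). Nlrc5 was nearest to Tgtp1 (0.957), Psmb8 (0.95) and Igtp (0.949), and H2-M3 to H2-Eb1 (0.953), Casp1 (0.947) and Psmb10 (0.945). H2-T23 had the lowest of these values, with Tmem140, Samhd1 and Trafd1 all at about 0.86.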

How the data were processed

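Kidney RNA of 95 mice was measured on Affymetrix arrays. The authors normalized the probe intensities by RMA, and the deposited values are log2 levels with a floor of 2.21, where 18.7% of values lie. Array medians lay between 4.22 and 4.57. Of 45141 probe sets, 104 controls were left out. Names came from the array annotation, updated by gene identifier; 28898 sets have 1 symbol, 551 several and 15588 none. A gene was represented by the set of highest mean. Groups came from the labels. limma 3.58.1 in R 4.3.3 fitted only the groups compared, with Benjamini-Hochberg adjustment over 45037 sets and a threshold of 0.05. The test was tried on simulated data. The number of arrays limits the precision. The members, gene lists, motifs and rule for named genes (all members; up to 3 largest called changes per list at week 14 and those going the other way; 3 nearest genes by correlation) were chosen with earlier results of these data known. Tmem140, Samhd1, Trafd1 and the other neighbours follow from that rule; Cd8a, outside it, was named after its values were seen. Mice that share a number did not deviate together at every week, so numbers were not used as pairs. Whether the mice came from separate litters or cages is not given in the sources used here.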

Additional observations from a re-analysis of the deposited data

Results flagged for a closer look

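In 9 of 66 combinations of gene and group, 1 mouse lay farther from the others than Dixon's 95% limit allows, a limit that chance passes in about 5% of groups. Untreated mouse 10 of week 12 was the highest in all 6 genes, at 11.95 for H2-K1, 12.51 for H2-D1, 9.28 for H2-Q4, 10.20 for H2-T23, 8.73 for H2-M3 and 10.90 for Nlrc5. Its nearest neighbours stood at 10.45, 11.12, 7.32, 8.01, 7.11 and 8.18. The others were untreated mouse 1 of week 4 for H2-Q4 (6.89, next 6.08), pristane mouse 4 of week 8 for H2-T23 (8.82, next 8.48) and untreated mouse 5 of week 14, the lowest for H2-M3 (5.94, next 6.38).

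The pristane effect differed between weeks 14 and 2, by the interaction contrast of limma, in H2-K1 (1.35 on the log2 scale), H2-D1 (0.97), H2-Q4 (1.22), H2-T23 (0.81) and H2-M3 (1.17), all larger at week 14.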

How the results depend on the processing

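Counts are of 6 genes. At week 2 the count of 2 became 4 above the 40th percentile of mean level or with the mean of all probe sets, 1 over 2-fold or at an adjusted p under 0.01, and 0 in a single fit of all groups or with adrenal genes as covariate. At week 4 it was 2 above the 40th percentile, and at week 12 4 in the single fit. At week 14 it was 3 at 0.01. For untreated week 14 against 0 it was 3 in the single fit or with mean sets, and 2 over 2-fold, at 0.01 or with the covariate. For pristane week 14 against 12 it was 3 after median centring, 2 after quantile normalization, 6 above the 40th percentile or in the single fit, 0 in the trended robust fit, over 2-fold or at 0.01, and 2 with array weights or the covariate. For the effect at week 14 minus week 2 it was 3 in the single fit or over 2-fold. The covariate was chosen after seeing the data.

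With the replicate number as a block, 0 genes were called at week 2, 4 at week 12 and 0 at week 14, where at most 5 pairs enter. Pairs deviating together (correlation over 0.1) were 5 of 9, 3 of 9, 3 of 8, 1 of 8 and 2 of 5 at weeks 2, 4, 8, 12 and 14, so the numbers were not treated as pairs.

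With 1 mouse left out, counts ranged from 2 to 4 at week 2 (4 without pristane mouse 1), 0 to 2 at week 4, 0 to 0 at week 8, 0 to 6 at week 12 and 4 to 6 at week 14. They ranged from 2 to 5 for untreated week 14 against 0, 6 to 6 for pristane week 14 against 2, and 0 to 6 for 14 against 12, with 6 without pristane mouse 2 and 5 without mouse 1 of week 14, and 0 without any mouse of week 12 or any of mice 3 to 9 of week 14. They were 0 to 0, 5 to 5 and 0 to 0 for the effects at 14 minus 12, 14 minus 2 and 8 minus 2.

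Signs turned for other probe sets of a gene. Apart from the H2-D1 value at week 8, these were the sets not called for pristane at week 14, whose values often repeat. For H2-T23 this was at week 2 (-0.0153), week 8 (-0.0363), week 12 (-0.0697) and for untreated week 14 against 0 (-0.169). For H2-K1 it was at week 8 (-0.0085), for untreated week 14 against 0 (-0.234) and from week 12 to 14 (-0.0085). For H2-D1 it was at week 8 (-0.0813), week 12 (-0.0249), for untreated week 14 against 0 (-0.214) and for the effect at 8 minus 2 (0.0131). For that contrast the covariate gave 0.162 for H2-K1, 0.0667 for H2-D1, 0.0576 for H2-Q4 and 0.206 for H2-T23, and leaving out 1 mouse gave -0.13 to 0.0761 for H2-T23. For the effect at 14 minus 12, leaving out 1 mouse gave -0.0307 (without untreated mouse 10) to 0.587 for Nlrc5. Over the single genes, 1359 of the values with 1 mouse left out kept direction and call, 23 gained a call, 36 lost it and 4 turned; 497 values in other settings kept both, 33 gained, 24 lost and 4 turned; with another probe set 57 kept both, 2 gained, 18 lost and 11 turned. The causes were not tested.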
